A study of Rattus norvegicus with 12 samples.

Results

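Xbp1 (ENSRNOG00000010298) and Herpud1 (ENSRNOG00000018796) are 2 genes of the response to unfolded protein in the endoplasmic reticulum, and they make up 2 of the 32402 genes in the deposited table. They were chosen by their FPKM (fragment numbers scaled by gene length and by library) in the 12 libraries described here, in which they had been seen to be higher with tunicamycin. Their levels are therefore given as a description and without a test. RNA came from cultured rat oligodendrocyte precursor cells, which divide and can mature into the glia that wrap axons of the brain and spinal cord in myelin. They had been taken from spinal cords of adult rats, stored frozen and used at low passage. The 4 groups were control at 2 h (0 µM tunicamycin), tunicamycin at 2 h (5 µM), control at 8 h (0 µM) and tunicamycin at 8 h (5 µM), with 3 libraries in each. Per the labels, 3 independent experiments gave 4 samples each, and both times come before the cells die. Strain and sex of the rats are not given in the sources used here, and neither is the vehicle of the controls. Marker genes of the cell type were not analysed here, because the table holds identifiers only and symbols were at hand for these 2 genes alone.

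Tunicamycin blocks the attachment of N-linked sugars to proteins in the endoplasmic reticulum, so that badly folded proteins build up there. The sensor IRE1 then cuts a short intron out of Xbp1 mRNA, and the spliced message encodes XBP1s, a transcription factor that raises genes of folding, secretion and degradation. The precursor mRNA of Xbp1 is itself raised through ATF6, another sensor of the same membrane, which acts on promoter sequences called endoplasmic reticulum stress response elements (ERSE). Herpud1 encodes a membrane protein with a ubiquitin-like domain that helps assemble the HRD1 complex, the machinery of endoplasmic-reticulum-associated degradation (ERAD), by which misfolded proteins are drawn into the cytosol and destroyed by the proteasome. Herpud1 is known as a target of ATF6 and also of ATF4, the factor made when the sensor PERK slows translation. The deposited values are per gene, so the spliced and unspliced forms of Xbp1 are counted together.

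The promoters of both genes are shown because each holds a full copy of an element from this pathway. The sequences are RefSeq's on the rat build GRCr8, run 5′ to 3′ along the gene's own strand, and cover 250 bases before to 50 bases after the annotated start of transcription. Capitals mark the matches to ERSE, ERSE-II and the C/EBP-ATF element described next, but not the short core ACGTG.
Xbp1, chr14:84604373-84604672, plus strand: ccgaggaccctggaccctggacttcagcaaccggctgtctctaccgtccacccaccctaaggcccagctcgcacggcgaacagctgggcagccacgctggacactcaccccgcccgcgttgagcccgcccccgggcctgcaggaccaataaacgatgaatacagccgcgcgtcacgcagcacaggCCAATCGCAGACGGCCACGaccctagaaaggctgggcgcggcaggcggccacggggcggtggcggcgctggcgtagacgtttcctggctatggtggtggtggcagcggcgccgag
Herpud1, chr19:10614658-10614957, minus strand: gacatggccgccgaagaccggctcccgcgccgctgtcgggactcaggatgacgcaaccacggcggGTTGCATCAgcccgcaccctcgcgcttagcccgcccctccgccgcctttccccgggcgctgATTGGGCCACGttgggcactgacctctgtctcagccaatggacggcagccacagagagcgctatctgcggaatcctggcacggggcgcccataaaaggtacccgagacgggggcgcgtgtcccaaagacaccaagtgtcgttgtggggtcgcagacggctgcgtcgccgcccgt

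The Xbp1 promoter held 1 match to ERSE (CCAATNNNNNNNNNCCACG, searched on both strands), at bases −65 to −47 from the start site, where the start site is base +1. The element joins a binding site of the factor NF-Y (CCAAT) to a site of ATF6 (CCACG). ERSE was present in 22 of 33469 promoter windows of this length, or 0.0657%. Other holders of ERSE included Hspa5 and Hsp90b1, chaperones of the endoplasmic reticulum, Calr and Canx, lectins that fold glycoproteins, and Derl3, a membrane protein of ERAD. The Herpud1 promoter held no ERSE and 1 match to ERSE-II (ATTGGNCCACG), in which the same half-sites lie closer together and CCAAT is on the opposite strand, at −124 to −114. Only exact matches were counted for each element. Downstream of ERSE-II, the Herpud1 window also holds a near match to ERSE, with the same spacing, that differs from ERSE in the last base only. Near matches were not searched for evenly over the elements, and the share of windows with such a match was not counted. No contrast with the Xbp1 promoter is drawn from the absence of an exact ERSE. ERSE-II was present in 17 windows, or 0.0508%, among them those of the chaperone genes Hyou1 and Dnajb11. Further holders include genes that are not known for a role in this pathway, such as Birc5, Foxd4, Zfp57 and Pan2 for ERSE and Cdc27, Cdc45, Defb52 and Prkcz for ERSE-II, and unnamed loci. These holders were named after the matches had been seen, and their expression was not analysed here. The elements were picked as known ones of this pathway. Nothing is therefore read from how rare they are, here or in the lists below.

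Herpud1 also held the C/EBP-ATF element (TGATGNAAN), a sequence bound by ATF4 with a C/EBP partner, on the opposite strand at −185 to −177. That element was common, with matches in 1328 windows or 3.97%. Of the 17 windows with ERSE-II, 2 held it as well, that of Herpud1 among them. The Xbp1 window had no match to ERSE-II or to the C/EBP-ATF element. Neither window had a match to UPRE (TGACGTGG), an element bound by XBP1s and ATF6, which 0.595% of windows held. ACGTG, the core of sites bound by XBP1s, was found in the Herpud1 window at −117 to −113, where it overlaps the end of ERSE-II, and in 19.3% of all windows. Both windows were rich in G and C, at 69.3% for Xbp1 and 68.3% for Herpud1 against a median of 51.7%, and held 32 and 35 CpG dinucleotides against a median of 7. The Herpud1 window starts inside the span that RefSeq gives the gene, so longer transcripts with another start are annotated. A match of letters is a description and does not show binding in these cells.

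**Figure D1:**
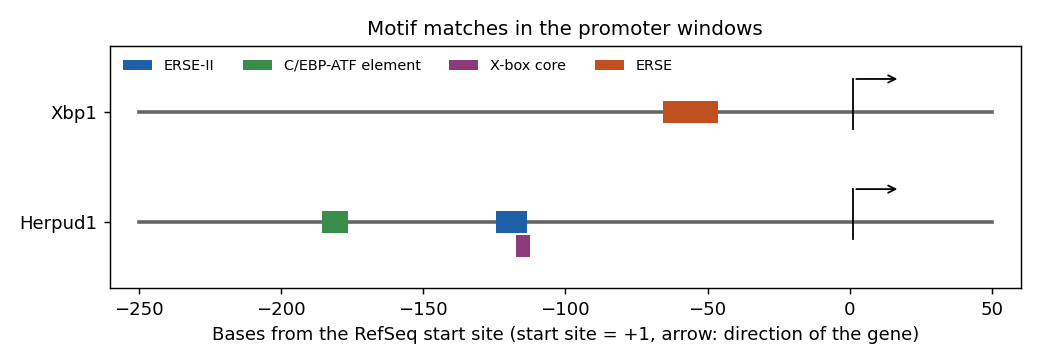
Matches to ERSE, ERSE-II, the C/EBP-ATF element and the X-box core ACGTG in the promoter windows of Xbp1 and Herpud1, drawn to scale as distance in bases from the RefSeq start site. Xbp1 has ERSE at −65 to −47, and Herpud1 has ERSE-II at −124 to −114 with the C/EBP-ATF element further upstream at −185 to −177.

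In the other lists of this pathway, promoters were found for 9 of 13 symbols of the IRE1-XBP1 branch and 17 of 24 symbols listed for ERAD. They were also found for 4 of 5 symbols listed for the other branches (Atf6, Atf6b, Eif2ak3, Mbtps1 and Mbtps2). The list for ERAD holds Selenos and Vimp, which name the same gene. ERSE or ERSE-II was present in 2 of the 9 (Dnajc3 and Dnajb11, both co-chaperones), against 0.117% of all windows. Either element was present in 2 of the 17 (Creld2 and Derl3) and in 0 of the 4. Creld2 stands in the list for ERAD but is not known as a part of the degradation machinery. None of these 9, 17 and 4 promoters held the C/EBP-ATF element, against 3.97% of all windows. UPRE, in 0.595% of all windows, was found in Srp19 of the first list and in Ube2g2, Ube2j1 and Vcp, which act in ubiquitination and extraction, of the second. The identifiers of these genes were not paired with symbols, so no expression value is given for them.

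Summed FPKM ran from 588250 to 764988 over the 12 libraries, and the number of fragments per library is unknown. The lowest sum was that of control 8 h replicate 2, and the next lowest was 690766. Control 8 h replicate 2 also had 12224 genes at 1 FPKM or more, against 11360 to 11600 in the other libraries. Of the 32402 genes, 12056 had a mean of at least 1 FPKM and were tested, both members among them. By limma on log2(FPKM + 1), 0.498% of the tested genes were called higher with tunicamycin at 2 h and 17.8% at 8 h (adjusted p under 0.05 over all tested genes). With 1 library left out, the share at 2 h ran from 0.133% (without control 2 h replicate 1) to 0.854% (without control 8 h replicate 2), and it was 0.315% after quantile normalization. The share at 8 h ran from 13.8% to 20.8%. The effect was called higher at 8 h than at 2 h for 7.47%, and for 11.2% without control 8 h replicate 2. The median log2 difference of all tested genes was −0.01 at 2 h and −0.02 at 8 h.

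Xbp1 was well expressed without stress, stood 1.40 times higher with tunicamycin at 2 h, and 3.28 times higher at 8 h. In control at 2 h it stood at 59.0, 56.7 and 59.3 FPKM in replicates 1, 2 and 3. With tunicamycin at 2 h it stood at 80.4, 84.4 and 80.3 FPKM. All treated libraries lay above all controls, with a gap of 21.0 FPKM between the lowest treated and the highest control library. The group means were 58.3 ± 1.41 and 81.7 ± 2.35 FPKM (SD, n = 3 each), a ratio of 1.40 that ran from 1.35 to 1.49 over the 9 pairs of a treated and a control library. On the log2(FPKM + 1) scale the difference was 0.48 ± 0.08 (SE from the limma fit), and 455 of the 12056 tested genes had a larger value. In bulk RNA, more transcript per cell and a change in which cells are present cannot be told apart.

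By 8 h the Xbp1 control libraries stood at 55.1, 60.7 and 64.8 FPKM and the treated ones at 208, 185 and 200 FPKM. The groups did not overlap, and the lowest treated library lay 120 FPKM above the highest control. The means were 60.2 ± 4.87 and 198 ± 11.6 FPKM (SD, n = 3 each), a ratio of 3.28 with a range of 2.86 to 3.78 over the library pairs. The log2 difference was 1.70 ± 0.08 (SE), and 190 tested genes had a larger value. The log2 difference at 8 h exceeded that at 2 h by 1.22 ± 0.11 (SE). In rank of expression among all genes, Xbp1 moved from places 1744 to 2123 in the 6 controls to 1449 to 1508 at 2 h and 561 to 616 at 8 h of tunicamycin.

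Herpud1 lay below Xbp1 in the controls, and stood 2.34 times higher with tunicamycin at 2 h and 11.9 times higher at 8 h. In the treated libraries it had the higher FPKM of the pair. In control at 2 h it stood at 43.0, 39.1 and 50.7 FPKM, and with tunicamycin at 2 h at 112, 97.2 and 101 FPKM. No treated library overlapped with a control, and the gap between the nearest libraries was 46.4 FPKM. The means were 44.3 ± 5.91 and 104 ± 7.82 FPKM (SD, n = 3 each). Their ratio was 2.34, with a range of 1.92 to 2.87 over the 9 library pairs. The log2 difference was 1.21 ± 0.11 (SE), and 164 of the 12056 tested genes had a larger value. Most of the genes ahead of it are listed at exactly 0 in at least 1 library, which can be a failed estimate or a gene that was off there. Leaving those genes out can therefore also remove genes that were switched on. Among the 11217 tested genes with no such zero, Herpud1 held place 14 and Xbp1 place 164 by the difference at 2 h.

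At 8 h the controls of Herpud1 stood at 42.4, 38.2 and 44.7 FPKM and the treated libraries at 465, 525 and 505 FPKM. The lowest treated library lay 420 FPKM above the highest control. The means were 41.8 ± 3.29 and 498 ± 30.7 FPKM (SD, n = 3 each), a ratio of 11.9 that ran from 10.4 to 13.7 over the library pairs. The log2 difference was 3.55 ± 0.11 (SE), and 14 tested genes had a larger value. Without genes listed at 0, Herpud1 held place 8 of 11217 and Xbp1 place 120. The log2 difference at 8 h exceeded that at 2 h by 2.33 ± 0.15 (SE). The rank of Herpud1 by expression went from 2320 to 2977 in the controls to 1026 to 1241 at 2 h and 178 to 226 at 8 h of tunicamycin.

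**Figure D2:**
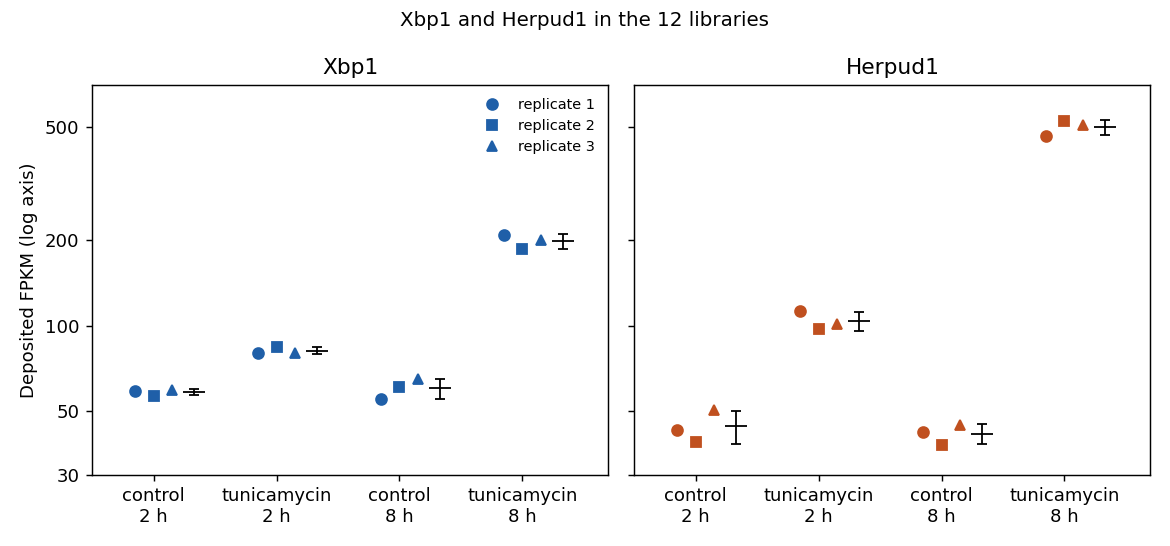
Deposited FPKM on a log axis for Xbp1 (left) and Herpud1 (right) in the 4 groups, with a symbol for each replicate and the mean ± SD (n = 3) in black beside it. Tunicamycin libraries lie above the controls of their time for both genes, from 185 to 208 FPKM for Xbp1 and from 465 to 525 FPKM for Herpud1 at 8 h.

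In both genes the 6 controls were lowest and tunicamycin at 8 h was highest. At 2 h, 2 of 2 members had all treated libraries above all controls, as had 10.1% of the tested genes. At 8 h this again held for 2 of 2 members and for 21.5% of the tested genes. All libraries at 8 h of tunicamycin also lay above all those at 2 h of tunicamycin for 2 of 2 members and for 25.6% of the tested genes. The full order, with the 6 controls lowest, tunicamycin at 2 h between and tunicamycin at 8 h highest and no overlap, was met by 302 tested genes or 2.5%, both members included. Over those 302 genes the median log2 difference was 0.26 at 2 h and 0.78 at 8 h. Herpud1 held place 5 among them at both times, and Xbp1 place 46 at 2 h and 34 at 8 h. These counts use the values by which the 2 genes were chosen, so nothing is read from them about the genes.

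The controls of the 2 times lay close together. For Xbp1 the control mean at 8 h was 1.03 times that at 2 h, a log2 difference of 0.04 ± 0.08 (SE), and the libraries of the 2 groups overlapped. For Herpud1 the ratio was 0.943 and the log2 difference −0.08 ± 0.11 (SE), again with overlap. Control groups that did not overlap were found for 4.62% of the tested genes and 0 of 2 members. The order of the 2 control groups therefore does not go beyond their spread in either gene. In the control library with the lowest summed FPKM, control 8 h replicate 2, Xbp1 stood at 60.7 FPKM, between the other libraries of its group, and Herpud1 at 38.2 FPKM, the lowest of the 12. Without that library the ratio at 8 h was 3.30 for Xbp1 and 11.4 for Herpud1.

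Between tunicamycin at 2 h and at 8 h, levels differed by more than the spread of the libraries. The mean of Xbp1 at 8 h was 2.42 times that at 2 h, with a range of 2.19 to 2.59 over the library pairs. For Herpud1 it was 4.81 times, with a range of 4.14 to 5.40. The gain over control at 2 h was 23.4 FPKM for Xbp1 and 59.3 FPKM for Herpud1, and at 8 h it was 138 and 457 FPKM. The early gain was thus 17.0% of the late gain for Xbp1 and 13.0% for Herpud1. On the log2 scale the shares were 28.2% and 34.2%, so the order of the genes in this measure turns with the scale.

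FPKM are scaled by gene length, so the FPKM of the genes can be set side by side within a library. Other differences between genes that affect FPKM were not assessed. The ratio therefore compares FPKM and not numbers of transcripts. The ratio of Herpud1 to Xbp1 was 0.758 ± 0.0862 in control at 2 h and 0.696 ± 0.0704 in control at 8 h (SD, n = 3 each). It was 1.27 ± 0.123 with tunicamycin at 2 h and 2.53 ± 0.301 at 8 h (SD, n = 3 each). Xbp1 had the higher FPKM in all 6 control libraries, where the ratio ran from 0.629 to 0.855. Herpud1 had the higher FPKM in all 6 treated libraries, with ratios from 1.15 to 1.40 at 2 h and from 2.23 to 2.83 at 8 h. A scaling by 1 factor per library leaves this ratio as it is. Quantile normalization, which moves genes unequally, gave log2 differences at 8 h of 1.58 for Xbp1 and 3.54 for Herpud1.

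**Figure D3:**
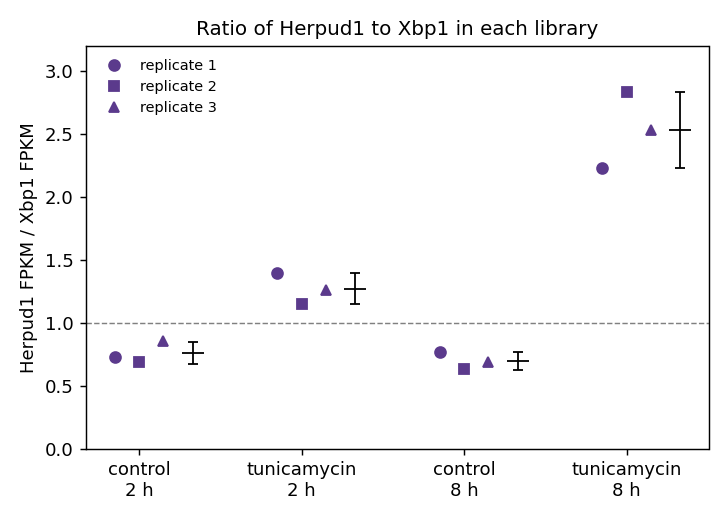
Ratio of Herpud1 FPKM to Xbp1 FPKM in each of the 12 libraries, with the mean ± SD (n = 3) in black and a dashed line where both genes have the same FPKM. The 6 controls lie below the line, from 0.629 to 0.855, and the 6 tunicamycin libraries above it, from 1.15 to 2.83.

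Replicates of both genes lay close together. The coefficient of variation within a group was 2.43% to 8.09% for Xbp1 and 6.16% to 13.3% for Herpud1. The residual SD on the log2 scale was 0.08 for Xbp1 and 0.13 for Herpud1, where the median of the tested genes was 0.18. A smaller residual SD was found in 5.66% of the tested genes for Xbp1 and in 25.8% for Herpud1. Genes of a like level were not compared. By the coefficient of variation the most variable group of Herpud1 was control at 2 h. Its replicate 3, at 50.7 FPKM, stood above the other libraries of that group. In FPKM the SD of Herpud1 was largest with tunicamycin at 8 h, at 30.7.

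**Figure D4:**
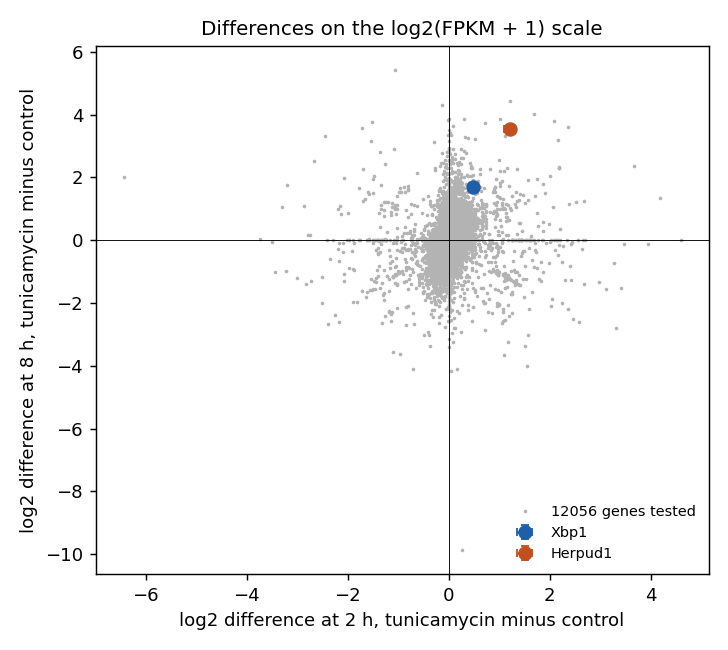
Difference of tunicamycin minus control on the log2(FPKM + 1) scale at 2 h (horizontal) and 8 h (vertical) for the 12056 tested genes in grey, with Xbp1 and Herpud1 in colour and bars for their SE. Xbp1 lies at 0.48 and 1.70 and Herpud1 at 1.21 and 3.55.

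The genes whose pattern was most alike were found by the root mean square difference in log2(FPKM + 1) over the 12 libraries, after each gene was centred on its own mean. Compared were 11216 tested genes without a value of 0. Many genes resembled Xbp1: 126 lay within 0.25 and 1099 within 0.5 of it. The nearest, at 0.097, was ENSRNOG00000043053, which went from 18.8 ± 1.51 to 29.6 ± 1.44 FPKM at 2 h and from 20.4 ± 2.62 to 63.0 ± 4.37 FPKM at 8 h (mean ± SD, n = 3 each). The next 4 lay at 0.125 to 0.134.

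Few genes resembled Herpud1, with 1 within 0.25 and 9 within 0.5. That nearest gene, at 0.213, was ENSRNOG00000005615, at 5.92 ± 1.72 and 13.7 ± 1.19 FPKM in control and treated cells at 2 h and 5.87 ± 0.808 and 68.1 ± 5.06 FPKM at 8 h (mean ± SD, n = 3 each). The next 4 lay at 0.252 to 0.449. Xbp1 and Herpud1 differed from each other by 0.746, which made Xbp1 the gene in place 89 from Herpud1 and Herpud1 the gene in place 5455 from Xbp1. The measure counts the size of a change as well as its course, so genes with large changes have few neighbours.

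**Figure D5:**
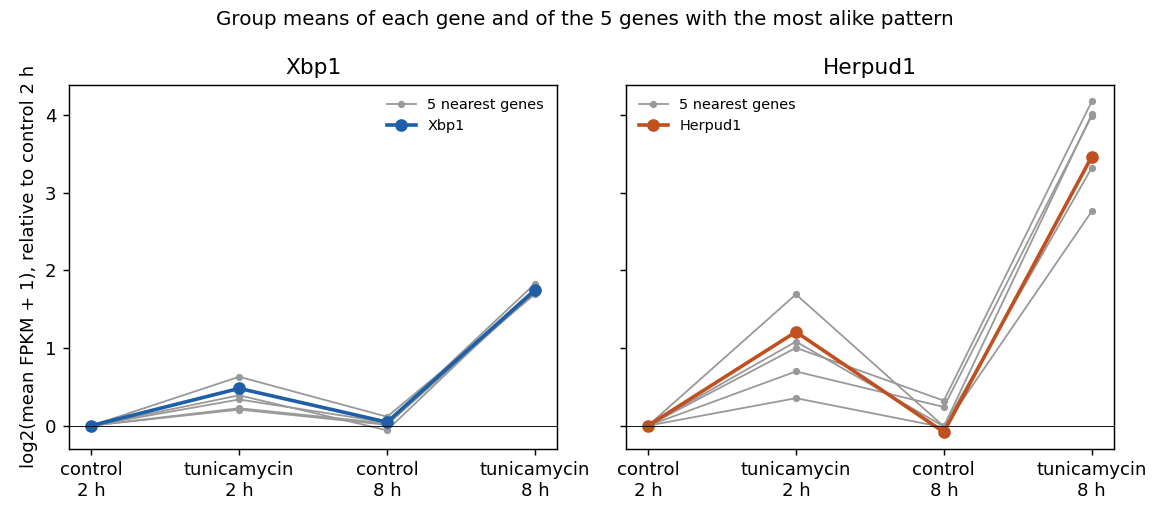
Log2(mean FPKM + 1) of the 4 groups relative to control at 2 h, for Xbp1 and Herpud1 in colour and the 5 genes most alike to each in grey. The grey lines of Xbp1 run close to it, at differences of 0.097 to 0.134, and those of Herpud1 are spread more widely, at 0.213 to 0.449.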

How the data were processed

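The authors deposited 1 table of FPKM per gene for the 12 libraries, which per the labels' protocols were stranded and depleted of ribosomal RNA. Per the submitters' processing notes, TopHat2 2.0.4, Cufflinks 2.2.1 and Cuffnorm, Cuffdiff 2.1.1, FastQC 0.10.1 and build rn6 were used; their roles are not given in the sources used here. Columns were matched to samples by treatment, time and replicate number. FPKM are not counts, so no count model was run, and depth is unknown.

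Values of genes whose mean reached 1 FPKM were transformed to log2(FPKM + 1). The model, fitted by limma 3.58.1 (R 4.3.3), had 1 mean for each of the 4 groups and used every library (trended moderated variances, 8 residual degrees of freedom). Adjusted p-values are Benjamini-Hochberg over all 12056 genes. The fit was checked on data made with known changes. The RefSeq table, with 47357 genes on GRCr8, matched 0 of the 32402 identifiers, so the lists of pathway genes and cell type markers have no expression result. Symbols of the 2 genes came with their choice and were not checked against the files. The genes, lists and motifs were chosen with earlier results of these data known. The rule for named genes took both members, any list gene with a symbol in the files, and the nearest gene of each member by identifier. Promoters of both members matched by symbol. Alternatives changed the pseudocount, the filter, the scaling, the replicate block and the libraries left out.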

Additional observations from a re-analysis of the deposited data

Results flagged for a closer look

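Tunicamycin had an effect at 8 h unlike that at 2 h in 1595 of the 12056 tested genes by the limma interaction test (adjusted p under 0.05), which is why the difference between the times is listed here. No test of this difference is given for Xbp1 or Herpud1, which were chosen on these values. The groups of 3 libraries were too small for the check of single outlying libraries.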

How the results depend on the processing

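Of 136 values of the Xbp1 and Herpud1 log2 differences under alternatives, 132 moved by less than the residual SD of the gene. Some of the 132 could not move, so this tally overstates how stable the differences are. The replicate block leaves every difference as it is. So does leaving out a library of a group that the difference does not use. The values that moved more were all in Xbp1. With quantile normalization its difference at 8 h was 1.58 and the excess of 8 h over 2 h was 1.10. With each library scaled to the same summed FPKM that excess was also 1.10, and the drift of the controls was 0.13. The cause was not tested. With 1 library left out, the difference at 8 h ran from 1.64 to 1.75 for Xbp1 and from 3.49 to 3.60 for Herpud1, and at 2 h from 0.46 to 0.49 and from 1.13 to 1.31. The drift of the Herpud1 controls, whose libraries overlap, ran from −0.16 to 0.02.

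Counts over all genes moved more. At 2 h, 67 genes were called, with 40 after quantile normalization and 18 to 114 with 1 library left out; the highest count came without control 8 h replicate 2, and the lowest, 18, without control 2 h replicate 1 or 2. It was 35 without control 2 h replicate 3, 19, 21 and 23 without tunicamycin 2 h replicate 1, 2 and 3, and 29 without tunicamycin 8 h replicate 3. The 1595 genes whose effect differed between the times became 1069 to 2657, the highest again without control 8 h replicate 2. At 8 h, 4016 genes were called, and 3044 to 5042 with 1 library left out. With the replicate number as a block, the counts were 32 at 2 h, 3717 at 8 h and 1253 for the difference. The libraries are numbered in the column names in runs of 4 that share a replicate number, with 1 library of each group; no source states whether the number marks the experiment. Same-numbered libraries deviated together (correlation over 0.1) in 2 of 18 pairs. Each library was also compared with the 3 libraries of the other group at its time, 1 of which shares its number. In this comparison 5 of 12 libraries correlated best with their own number. Under the replicate block the SE of the difference between 2 groups was 0.085 for Xbp1 and 0.11 for Herpud1. For the excess of 8 h over 2 h it was 0.12 and 0.15. Without counts of fragments, no counting error can be given.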
